A study of Homo sapiens with 10 samples.

Results

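The S100 genes encode small calcium-binding proteins, and 10 of the 58735 genes of the count table were chosen by name among those of the epidermal gene cluster on chromosome 1: S100A2, S100A4, S100A6, S100A7, S100A8, S100A9, S100A10, S100A11, S100A14 and S100A16. Their mRNA was measured in A253 cells, an established human line from a squamous carcinoma of a salivary gland, grown in DMEM with serum. The control cells (DUSP1+/+) carried a guide RNA against dTomato, a sequence that human cells lack. Cl1 and Cl10 (DUSP1-/+) are single-cell clones in which a pair of intronic guide RNAs had removed exon 2 of DUSP1, a phosphatase of MAP kinases, from 1 allele. The study found no DUSP1 protein in either clone, and proposes that inactivating mutations of the remaining alleles could be the reason. All 3 groups carried lentiviral Cas9 and guide RNA vectors and had been selected with puromycin and blasticidin, and each was sequenced as 2 libraries. Each clone grew from a single cell, so the deletion and any other property of that cell cannot be told apart. No source says whether libraries of a group came from separate cultures, so p-values measure the spread between libraries, which may be technical.

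S100 proteins work mostly as dimers, in which each subunit carries a pair of EF-hand motifs that bind calcium and then expose a face for docking onto other proteins. Inside epithelial cells they bind annexins, myosin and other cytoskeletal proteins, and several are released by damaged or inflamed epithelium, where they act on immune cells or starve microbes of metal ions. S100A8 and S100A9 together form calprotectin, which myeloid cells hold in large amounts and which keratinocytes make under stress.

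Normalized counts, used throughout, are counts scaled with TMM factors to the mean library total. Each comparison was fitted with edgeR's quasi-likelihood test on its own 4 libraries, and p-values were adjusted by Benjamini-Hochberg over all genes tested. A gene passed at an adjusted p under 0.05, and was called when its absolute log2 fold change was also above 1. The comparisons of Cl1 and of Cl10 with the control share the control libraries.

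The deposited counts summed to between 47016495 and 70986593 per library. The 10 genes together took 0.347% and 0.428% of the counts of the control libraries, 0.503% and 0.501% in Cl1, and 0.398% and 0.362% in Cl10. DUSP1, the targeted gene, had 744.4 and 635.4 normalized counts in the control, 303.9 and 353.7 in Cl1 and 495.1 and 415.2 in Cl10. Every clone library was below both controls, by -1.07 on the log2 scale in Cl1 (adjusted p = 0.000292, edgeR) and -0.59 in Cl10 (adjusted p = 0.0113, edgeR), where the difference did not pass without Cl10 replicate 2 (-0.48, adjusted p = 0.0794, edgeR). All 7 squamous epithelial markers examined (KRT5, KRT14, KRT17, KRT6A, TP63, DSG3 and SFN) were expressed, with summed levels between 748031 and 864801 normalized counts, whereas 7 of 9 markers of salivary acinar cells had at most 3 counts in any library. Among 7 fibroblast markers, LUM was at 0, and the summed levels, mostly COL1A1 and COL3A1, lay between 1750 and 2915. Because S100A8 and S100A9 are also myeloid genes, 11 myeloid markers were examined. FCGR3A, FCN1 and CSF3R were at 0 in all 6 libraries, and PTPRC, the pan-leukocyte marker, had 1.69 and 2.15 normalized counts in the control, 11.95 and 8.20 in Cl1 and 8.84 and 7.18 in Cl10. It was higher in all clone libraries than in both controls, without overlap, and was too low to be tested. The summed level of the 11 markers was 478.8 to 533.3 in the control, 835.1 to 1009 in Cl1 and 760.9 to 848.8 in Cl10, nearly all of it CD14 and ITGAM.

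All 10 genes lie on chromosome 1 of hg38 between 151982915 and 153616986, a stretch of 1.63 Mb that also holds the filaggrin, involucrin and SPRR genes. S100A10 (151982915-151993859) and S100A11 (152032506-152047907) stand at its near end, and the other 8 lie together between S100A9 (153357854-153361023) and S100A14 (153614255-153616986). S100A9 is on the plus strand and the other 9 on the minus strand. In the canonical transcript of GENCODE v44, 9 of the genes have 3 exons and S100A14 has 4. None of the 10 shares exon bases with a gene of its own strand, and S100A6 shares 3.81% of its exon bases with a gene of the opposite strand.

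The 250 bases before the start of transcription are shown for S100A9, S100A8 and S100A4, the 3 with the largest rise in each clone among the 4 members that rose in both, and for S100A7, which did not pass in either. They were taken from RefSeq (GRCh38.p14) at chr1:153357604-153357853 on the plus strand for S100A9 and, on the minus strand, at chr1:153391074-153391323 for S100A8, chr1:153545807-153546056 for S100A4 and chr1:153460652-153460901 for S100A7. Each is written 5′ to 3′ on the strand of its gene, and capitals mark the TATA box letters TATAAA.
S100A9: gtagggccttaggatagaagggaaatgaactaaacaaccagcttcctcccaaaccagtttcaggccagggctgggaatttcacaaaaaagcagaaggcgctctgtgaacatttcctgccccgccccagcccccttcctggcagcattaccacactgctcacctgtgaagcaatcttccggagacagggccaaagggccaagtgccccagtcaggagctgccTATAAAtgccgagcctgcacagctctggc
S100A8: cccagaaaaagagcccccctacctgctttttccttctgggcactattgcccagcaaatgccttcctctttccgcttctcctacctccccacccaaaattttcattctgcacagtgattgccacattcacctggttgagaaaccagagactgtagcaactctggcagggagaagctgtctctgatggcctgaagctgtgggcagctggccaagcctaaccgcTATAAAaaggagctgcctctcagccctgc
S100A4: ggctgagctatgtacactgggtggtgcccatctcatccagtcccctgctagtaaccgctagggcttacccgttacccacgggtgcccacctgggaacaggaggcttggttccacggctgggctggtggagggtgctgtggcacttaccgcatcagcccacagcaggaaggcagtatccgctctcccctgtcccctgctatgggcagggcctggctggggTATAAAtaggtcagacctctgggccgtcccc
S100A7: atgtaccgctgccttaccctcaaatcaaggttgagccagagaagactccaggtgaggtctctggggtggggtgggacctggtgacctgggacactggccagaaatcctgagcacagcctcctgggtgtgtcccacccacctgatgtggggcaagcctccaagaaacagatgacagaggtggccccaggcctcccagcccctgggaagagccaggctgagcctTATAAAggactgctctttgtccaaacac
All 4 hold TATAAA on the gene's own strand close to the start, from base -29 to -24 in S100A9 and in S100A8, from -31 to -26 in S100A4 and from -28 to -23 in S100A7, and the other 6 members do not hold it in this window. For the background, 35116 RefSeq promoter windows were searched from 250 bases before the start to 50 bases after it, longer than the stretches shown. Of these windows, 11.5% hold TATAAA on either strand, and 2.63% hold it on their own strand in the 50 bases before the start. By these exact letters, the members with this motif are also the 4 with the lowest levels in the control cells. S100A6 and S100A14, at higher levels, hold the variant TATAAG close to the start. Whether the motif goes with the level was not tested. Another pair of motifs was searched on both strands. The AP-1 letters TGANTCA, found in 7.71% of windows, occurred only in S100A2, from -52 to -46. The C/EBP letters TTGCNNAA, found in 10.5% of windows, occurred only in S100A11, on the strand opposite to the gene, from -33 to -26.

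The members differed widely in level. Expressed as CPM (counts scaled to the library total times its TMM factor) per kilobase of exon, so that genes of different length can be compared, the control means ran from 1514 for S100A11 and 991.6 for S100A6 through 528.1 for S100A10, 454.5 for S100A2, 251.9 for S100A14 and 157.0 for S100A16 down to 42.4 for S100A4, 17.6 for S100A9, 2.33 for S100A8 and 0.453 for S100A7. Neighbours in this order did not overlap between libraries except S100A10 and S100A2. With the length of the canonical transcript in place of all exons, S100A6 (2218) stood above S100A11 (1746). In Cl1, S100A9 rose to 125 on the scale of all exons, above S100A4 at 85.0, but on the scale of the canonical transcript S100A4 was higher, at 157. In Cl10, S100A9 reached 40.3 and stayed below S100A4 at 78.6.

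Measured against the control, 5 of the 10 members rose in Cl1 and none fell, while in Cl10 4 rose and 1 fell. The genes that passed in Cl1 were S100A4, S100A8, S100A9, S100A10 and S100A14, and the share of all 20153 tested genes that passed was 25.1% (12.4% higher and 12.8% lower). All but S100A10 were also called, against 7.54% of all genes (4.27% higher and 3.27% lower). In Cl10 S100A4, S100A8, S100A9 and S100A10 passed higher and S100A6 lower, against 42.5% of 19875 genes (20.6% higher and 21.8% lower), and S100A8 and S100A9 were called, against 13.4% (5.98% higher and 7.44% lower), so that the 5 of 10 that passed in Cl10 stood close to the share of all genes. The median log2 fold change over the 10 was 0.64 in Cl1, where that of all genes was -0.013, and 0.15 in Cl10, where it was -0.011.

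S100A9 (ENSG00000163220), the calprotectin subunit with an extended C-terminal tail, changed most of the 10 genes. It had 513.5 and 649.4 normalized counts in the control libraries, 3669 and 4555 in Cl1, and 1439 and 1217 in Cl10. All clone libraries lay above both controls, and both Cl1 libraries lay above both Cl10 libraries, with no overlap between any groups. In bulk RNA, more cells with the transcript and more transcript per cell cannot be told apart. Its log2 fold change in Cl1 was 2.83 (7.10-fold, standard error 0.149, adjusted p = 1.53e-07, edgeR) and in Cl10 1.20 (2.30-fold, standard error 0.141, adjusted p = 0.000804, edgeR). The difference between the clones was itself past the test, at -1.62 for Cl10 against Cl1 (standard error 0.102, adjusted p = 1.18e-07, edgeR).

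S100A8 (ENSG00000143546), the other calprotectin subunit, stood at 108.3 and 131.2 normalized counts in the control, 274.9 and 359.6 in Cl1, and 284.9 and 254.8 in Cl10. Every clone library was above both controls, and the ranges of Cl1 and Cl10 overlapped. It rose by a log2 fold change of 1.41 in Cl1 (standard error 0.196, adjusted p = 0.000288, edgeR) and of 1.18 in Cl10 (standard error 0.167, adjusted p = 0.00165, edgeR). Between the clones S100A8 differed by -0.22, with a 95% interval from -0.55 to 0.11, and did not pass, although it did without Cl1 replicate 1 (-0.41). With the median change of the 50 nearest genes subtracted, both subunits still passed in Cl10 but were no longer called (S100A8 0.93, S100A9 0.95).

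Calprotectin holds the subunits in equal numbers, so their mRNA ratio was taken within each library, per base of canonical transcript. S100A9 over S100A8 was 3.38 and 3.53 in the control libraries, 9.50 and 9.02 in Cl1, and 3.60 and 3.40 in Cl10. The ratio in Cl1 stood far above that of the other 4 libraries, while the Cl10 and control libraries overlapped. Per base of all exons the ratios were higher (7.37 and 7.70 in the control, 20.8 and 19.7 in Cl1, 7.86 and 7.42 in Cl10) in the same order of groups. Among the myeloid markers, CSF1R had 3.38 and 5.38 normalized counts in the control, 22.2 and 34.0 in Cl1 and 13.8 and 10.8 in Cl10. It rose in Cl1 (2.66) and did not pass in Cl10 (1.51, adjusted p = 0.0609, edgeR), and PTPRC, given above, was higher in the clones without a test. CD14 (0.87 and 0.50) and ITGAM (0.73 and 1.1) passed in both clones, although CD14 in Cl10 did not without Cl10 replicate 1 (0.40) or with the local median subtracted (0.27), nor ITGAM in Cl1 without Cl1 replicate 2 (0.65). The part of such changes in the calprotectin values was not tested.

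S100A7 (ENSG00000143556), psoriasin, an antimicrobial protein of inflamed epidermis, was near the limit of detection, with 16 and 11 raw counts in the control, 6 and 8 in Cl1 and 10 and 14 in Cl10. The Cl1 libraries were the lowest, and the Cl10 libraries spanned the control. Relative to the control, S100A7 stood at -0.85 in Cl1 on the log2 scale, with a 95% interval from -2.07 to 0.35, and 0.04 in Cl10, with an interval from -1.05 to 1.14. At this depth a change of about 2-fold in either direction could not be told from none in Cl10. S100A7 did not reach the filter on low counts for Cl10 against Cl1. Reads of S100A7 and of its near-identical copy S100A7A may have been split between the genes, which leaves both values uncertain.

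S100A4 (ENSG00000196154), which binds non-muscle myosin and is known from motile and metastatic cells, rose in both clones. The control libraries had 2012 and 2601 normalized counts, the Cl1 libraries 4585 and 4670, and the Cl10 libraries 4496 and 4061. All clone libraries exceeded both controls, and every Cl10 library lay below the Cl1 libraries. The log2 fold changes were 1.01 in Cl1 (standard error 0.13, adjusted p = 0.000162, edgeR) and 0.90 in Cl10 (standard error 0.13, adjusted p = 0.00185, edgeR), and Cl10 against Cl1 gave -0.11, with a 95% interval from -0.25 to 0.03. The rise in Cl1 sat at the fold-change threshold: it was 0.83 without control replicate 1 and 1.00, just under the threshold, without Cl1 replicate 2. The value in Cl10 was 1.09, and called, without control replicate 2. With the median of the 50 nearest genes subtracted it was 0.73 in Cl1 and still passed.

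S100A14 (ENSG00000189334), a member with an incomplete calcium-binding motif found mainly in epithelia, rose in Cl1. Its normalized counts were 16368 and 20654 in the control, 38022 and 39422 in Cl1, and 22632 and 21247 in Cl10. The Cl1 libraries stood well above the other 4, and the Cl10 libraries lay just above the higher control. In Cl1 it rose by 1.07 on the log2 scale (standard error 0.144, adjusted p = 0.000225, edgeR), and its value of 0.25 in Cl10 did not pass (95% interval from -0.04 to 0.54). The value in Cl10 did pass without control replicate 2 (0.42) and with the replicate numbers crossed between groups (0.26). Between the clones the difference of -0.82 passed (standard error 0.0637, adjusted p = 6.16e-07, edgeR). In Cl1 the value was 0.91 without control replicate 1 and 0.72 with the local median subtracted, so that it passed but was no longer called.

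S100A10 (ENSG00000197747), the partner of annexin A2 at the plasma membrane, has lost calcium binding and stays in the open form. It counted 27815 and 33699 in the control, 62301 and 52569 in Cl1, and 40089 and 37606 in Cl10, all normalized. The 3 groups did not overlap, with the control lowest and Cl1 highest. It rose by 0.90 on the log2 scale in Cl1 (standard error 0.15, adjusted p = 0.000986, edgeR) and by 0.34 in Cl10 (standard error 0.112, adjusted p = 0.0448, edgeR), and Cl10 against Cl1 gave -0.56 (standard error 0.0803, adjusted p = 9.35e-05, edgeR). In Cl1 it was also above the fold-change threshold without control replicate 2 (1.05) or without Cl1 replicate 2 (1.03). The smaller rise in Cl10 did not pass without Cl10 replicate 1 (0.30) or without Cl10 replicate 2 (0.39), nor with the local median subtracted (0.18).

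ANXA2, the gene of its partner, did not pass in either clone (0.07 and -0.05), although in Cl10 it passed without control replicate 1 (-0.16). The ratio of S100A10 to ANXA2 per base of canonical transcript was 1.03 and 1.08 in the control libraries, 1.96 and 1.80 in Cl1 and 1.40 and 1.37 in Cl10. The groups were apart in every library, with Cl1 highest.

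S100A11 (ENSG00000163191), which binds annexin A1 and takes part in membrane repair and keratinocyte growth control, was the most abundant member by all-exon length. There were 51681 and 61434 normalized counts in the control, 75896 and 71044 in Cl1, and 53534 and 49192 in Cl10. Both Cl1 libraries were above all others, and the Cl10 libraries overlapped the control. Its log2 fold change of 0.38 in Cl1 did not pass (95% interval from 0.07 to 0.69, adjusted p = 0.0731, edgeR), although it did in 5 of 14 alternatives, DESeq2 among them (adjusted p = 0.0172), and neither did -0.13 in Cl10. The value in Cl10 did pass without control replicate 1 (-0.26) and with the local median subtracted (-0.34). Cl10 lay below Cl1 by -0.51 (standard error 0.0689, adjusted p = 5.55e-05, edgeR).

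S100A6 (ENSG00000197956), calcyclin, a gene of growing cells, fell in Cl10. It had 48602 and 62213 normalized counts in the control, 56601 and 59721 in Cl1, and 44172 and 38779 in Cl10. The Cl10 libraries were the lowest, and the Cl1 libraries lay within the range of the control. Its level in Cl10 gave -0.41 on the log2 scale (standard error 0.135, adjusted p = 0.044, edgeR), and 0.07 in Cl1, with a 95% interval from -0.25 to 0.40. The fall in Cl10 did not pass without Cl10 replicate 1 (-0.50) or without Cl10 replicate 2 (-0.32), and it did not pass once the trend with transcript length was subtracted (-0.26, adjusted p = 0.158, edgeR). Against Cl1 the level in Cl10 was lower by a larger multiple of its error, at -0.48 (standard error 0.0733, adjusted p = 0.000145, edgeR).

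S100A2 and S100A16 did not pass against the control in either clone in the main fits. In Cl10 their direction depended on the control library left out. Without control replicate 1 they passed lower (-0.22 and -0.16), and without control replicate 2 they passed higher (0.21 and 0.12). In Cl1 both passed higher without control replicate 2 (0.36 and 0.37). S100A2 (ENSG00000196754), a p63 target of basal squamous epithelium, ranged from 34486 to 46383 normalized counts in the control, and all 4 clone libraries fell within that range, between 36463 and 44899. Its log2 fold changes were 0.13 in Cl1 (95% interval from -0.21 to 0.46), -0.01 in Cl10 (from -0.38 to 0.35) and -0.14 for Cl10 against Cl1 (from -0.31 to 0.03). S100A16 (ENSG00000188643), a widely expressed member, had 13898 and 16848 normalized counts in the control, 18684 and 17025 in Cl1, and 15324 and 14887 in Cl10. The Cl1 libraries were the highest, and the Cl10 libraries lay inside the control range. Against the control it stood at 0.22 in Cl1 (95% interval from -0.07 to 0.51) and -0.02 in Cl10 (from -0.28 to 0.24), and Cl10 was lower than Cl1 by -0.24 (standard error 0.0644, adjusted p = 0.00841, edgeR), a difference that did not pass without either Cl10 library (-0.25 and -0.21), in 1 fit over 6 libraries (adjusted p = 0.102, edgeR), or with the local median (-0.081) or the length trend (-0.16) subtracted.

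Set against each other, the clones differed in most members and in a single direction. Of the 9 members tested for Cl10 against Cl1, 6 were lower in Cl10 (S100A6, S100A9, S100A10, S100A11, S100A14 and S100A16), none was higher, and only S100A9 was called, while 49% of all 19818 genes passed (24.9% higher and 24.1% lower) and 10.8% were called (4.47% higher and 6.28% lower). The median over the 9 was -0.48, beside -0.001 over all genes. This comparison uses no control library.

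The control libraries differed between themselves in these genes. All 9 members with over 10 normalized counts in each library were higher in control replicate 2 than in replicate 1, with a median ratio of 1.26. Across all genes the median ratio was 1.00, among 2540 transcripts under 1000 bases it was 1.11, and among 3758 transcripts over 5000 bases it was 0.865. The members, whose transcripts are short or close to it, thus moved in the direction of the short transcripts, and further. In the Cl1 pair 5 of the 9 were higher in replicate 2 (median ratio 1.02), and in the Cl10 pair none was (0.903). The median change of the 500 tested genes nearest in length was also subtracted. This left S100A4, S100A8, S100A9, S100A10 and S100A14 past the test in Cl1 and S100A4, S100A8, S100A9 and S100A10 in Cl10. That median was negative for each of them, as at -0.034 for S100A4 in Cl1 and -0.169 for S100A10 in Cl10. Subtracting it therefore enlarged the rises and cannot decide whether length took part in them. The fall of S100A6 in Cl10 did not pass after it (-0.26, adjusted p = 0.158, edgeR).

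Much of the rest of the 1.63 Mb stretch, though not all of it, moved with a different order of the clones. Of 71 other genes of the stretch in the table that are not S100 genes, 18 were tested in Cl1, with 12 passing higher, none lower and a median of 1.17 on the log2 scale. In Cl10 22 were tested and 19 passed higher, none lower, with a median of 1.99. Over all genes, 12.4% passed higher in Cl1 and 20.6% in Cl10. For Cl10 against Cl1 the median of 21 genes was 1.03, with 16 higher and 1 lower, whereas the S100 members had -0.48. Over all genes, 24.9% were higher and 24.1% lower. The lower gene of the stretch was PGLYRP3 (-0.622), which lies near S100A9, as does PGLYRP4 (-0.458, not passed). Like S100A9, both rose more in Cl1 (PGLYRP3 3.51, PGLYRP4 2.71) than in Cl10 (2.88 and 2.24). Genes low in the control could reach the filter on low counts only through a clone in which they were high. At a mean of at least 5 CPM, 5 were left, with medians of 0.86 in Cl1, 1.69 in Cl10 and 0.70 for Cl10 against Cl1. Of these 5, 4 passed higher in each comparison. That mean includes the clone libraries, so this cut too can admit a gene through a clone in which it was high. Around the members, the median of the 50 nearest tested genes lay between 0.28 and 0.35 in Cl1 and between 0.16 and 0.26 in Cl10. With that median subtracted, the 5 members that had passed in Cl1 still passed, and of the 4 that had passed higher in Cl10 all but S100A10 did.

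Of 11 further S100 genes, 7 were tested in Cl1, 6 in Cl10 and 7 between the clones. In Cl1 3 rose and none fell, in Cl10 none rose and 3 fell, and 4 were lower in Cl10 than in Cl1. The shares of all genes were 12.4% higher in Cl1, 21.8% lower in Cl10 and 24.1% lower in Cl10 than in Cl1. S100P (ENSG00000163993), which lies apart on chromosome 4 (6693878-6697170) and marks several carcinomas, moved in opposite directions. It had 301.1 and 360.2 normalized counts in the control, 794.9 and 938.2 in Cl1, and 70.7 and 92.1 in Cl10. The 3 groups were far apart, with Cl1 highest and Cl10 lowest. Its rise in Cl1 was 1.39 on the log2 scale (standard error 0.15, adjusted p = 4.17e-05, edgeR), beside -2.02 for Cl10 (standard error 0.192, adjusted p = 0.000353, edgeR) and -3.42 for Cl10 against Cl1 (standard error 0.152, adjusted p = 9.80e-09, edgeR). In Cl10 the 50 genes nearest to S100P had a median of -0.96, and with this subtracted S100P stood at -1.06 and was still called.

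S100A3, a gene of the hair cuticle, had 411.1 and 517.1 normalized counts in the control, 630.1 and 655.9 in Cl1, and 304.6 and 250.1 in Cl10. It too was highest in Cl1 and lowest in Cl10 without overlap, with log2 fold changes of 0.47 in Cl1 (adjusted p = 0.0324, edgeR), -0.73 in Cl10 (adjusted p = 0.0106, edgeR) and -1.20 between the clones (adjusted p = 4.68e-06, edgeR). The rise in Cl1 did not pass without control replicate 1 (0.31), without Cl1 replicate 1 (0.50), without Cl1 replicate 2 (0.45), with library size only (0.41) or with the local median subtracted (0.20). S100A12, the third myeloid S100 gene beside S100A8 and S100A9, had 5 and 6 raw counts in the control, 31 and 18 in Cl1 and 12 and 4 in Cl10. Its log2 fold change in Cl1 was 2.17 (adjusted p = 0.00827, edgeR), which did not pass without Cl1 replicate 1 (1.98), and in Cl10 it did not reach the filter. S100A13 fell in Cl10 (-0.54, adjusted p = 0.00895, edgeR), which did not pass without Cl10 replicate 2 (-0.49), and stood lower in Cl10 than in Cl1 (-0.42, adjusted p = 0.000576, edgeR), but it shares 24.2% of its exon bases with a gene of its own strand. S100A1, S100A5 and S100A7A did not pass in any comparison, S100B and S100A7L2 had no counts in any library (against a detection limit of 3 counts), and S100G and S100Z had at most 2.

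The fused-type S100 genes of the same stretch, long genes that join an S100 domain to repeats and build the cornified layer, numbered 7, of which 4 were tested in each comparison. All 4 passed higher each time, beside 12.4% of all genes in Cl1, 20.6% in Cl10 and 24.9% in Cl10 against Cl1. FLG and HRNR had 1.39 and 2.17 in Cl1 and 1.99 and 3.19 in Cl10 on the log2 scale, and subtracting the local median took FLG in Cl1 below the test (0.90). RPTN, repetin, had no counts in the control, 6 and 4 in Cl1 and 50 and 28 in Cl10, and was at least 14.3-fold higher in Cl10 and at least 1.70-fold in Cl1 when the control is set to 3 counts per library. TCHHL1 had 0 and 1 counts in the control, 13 and 14 in Cl1, and 9 and 5 in Cl10. These low genes too could be tested only where the clones were high. Unlike the 6 members that passed between the clones, FLG, HRNR and RPTN were higher in Cl10 than in Cl1 (0.61, 1.03 and 3.05). With DESeq2 neither FLG (adjusted p = 0.142) nor HRNR (adjusted p = 0.0566) passed this comparison, and FLG did not pass in 1 fit over 6 libraries (adjusted p = 0.0857, edgeR) or without Cl1 replicate 1 (0.57), Cl10 replicate 1 (0.56) or Cl10 replicate 2 (0.66).

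Receptors and partners of S100 proteins moved in both directions. So did all genes tested, of which 12.4% passed higher and 12.8% lower in Cl1, and 20.6% and 21.8% in Cl10. Of 7 receptor genes 6 were tested, and TLR4, a receptor for calprotectin, had no counts. In Cl1 1 rose and none fell. CD36, a scavenger and fatty acid receptor, had 11 and 5.38 normalized counts in the control, 20.5 and 31.6 in Cl1 and 23.6 and 11.96 in Cl10, and passed in Cl1 at 1.59 (adjusted p = 0.0333, edgeR), but not with DESeq2 (1.65), without control replicate 2 (1.22), without Cl1 replicate 1 (1.90) or without Cl1 replicate 2 (1.28). In Cl10 1 rose (ALCAM, 0.40) and 3 fell, among them AGER, the receptor RAGE, at -0.89. ALCAM did not pass without Cl10 replicate 1 (0.43) or Cl10 replicate 2 (0.38), nor AGER without Cl10 replicate 2 (-0.71). MCAM, an adhesion receptor that binds S100A8 and S100A9, fell by 1.06 on the log2 scale in Cl10 (adjusted p = 0.000453, edgeR), from 641.2 and 664.4 to 302.6 and 319.4 normalized counts.

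Of 12 intracellular partners, all tested, 3 rose and 1 fell in Cl1, and 2 rose and 3 fell in Cl10. The part that passed in Cl10 stood close to the 42.5% of all genes, beside 25.1% of all genes in Cl1. ANXA6, a calcium-dependent membrane-binding annexin, had 1902 and 1975 normalized counts in the control, 1223 and 1196 in Cl1 and 668.1 and 632.9 in Cl10, and its log2 fold changes were -0.68 (adjusted p = 0.00075, edgeR) and -1.57 (adjusted p = 6.30e-05, edgeR). DLC1, a tumour suppressor bound by S100A10, rose in both clones (1.29 and 1.72). AHNAK, a giant scaffold bound by the S100A10 and annexin A2 complex, had 59276 normalized counts in control replicate 1 and only 26746 in replicate 2, beside 100952 and 98984 in Cl1 and 63955 and 66576 in Cl10. Its rise in Cl1 (1.22, adjusted p = 0.00566, edgeR) was 0.76 without control replicate 2 and did not pass with DESeq2 (adjusted p = 0.0884), and its 0.61 in Cl10 did not pass, although it did in 5 of 14 alternatives.

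Of 12 epithelial antimicrobial genes, often found beside calprotectin in inflamed epithelium, 7 were tested against the control in each clone. In Cl1 3 rose and none fell, and in Cl10 5 rose and 2 fell. Among all genes tested, 12.4% passed higher and 12.8% lower in Cl1, and 20.6% and 21.8% in Cl10. LCN2, a siderophore-binding protein, rose from 6.77 and 3.23 normalized counts in the control to 27.3 and 29.3 in Cl1 (log2 fold change 2.43, adjusted p = 0.00401, edgeR) and to 26.5 and 14.4 in Cl10 (1.99, adjusted p = 0.0274, edgeR), where it did not pass with DESeq2 (2.03) or without control replicate 2 (1.60) or Cl10 replicate 1 (1.47). PI3, the elastase inhibitor elafin, had 0.61 in Cl1 and 2.27 in Cl10, the first of which did not pass with library size only (0.54), with DESeq2 or without Cl1 replicate 1 (0.41). RNASE7, an antimicrobial ribonuclease, had 1.31 in Cl1, which passed only in 4 of 12 alternatives, and 2.50 in Cl10. SERPINB4, a protease inhibitor of squamous cells, had 86.3 and 63.4 normalized counts in the control, 66.6 and 93.7 in Cl1, and 1.97 and 2.39 in Cl10, a log2 fold change of -5.04 in Cl10 (adjusted p = 0.000273, edgeR). It has a near-identical neighbour, SERPINB3, so the split of reads between them is uncertain.

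The genes nearest to S100A9 in pattern were sought among 11655 genes with a mean of at least 5 CPM, by the Euclidean distance over 6 libraries of log2 values less their control mean. LGALS7B (distance 0.235), galectin-7, was nearest, at 2.64 in Cl1 and 1.03 in Cl10 on the log2 scale, although reads of its near-identical copy LGALS7 make its level uncertain. PRSS8 (0.578), the membrane protease prostasin, followed with 2.77 and 1.14, and SNCG (0.766), gamma-synuclein, with 2.27 and 1.12. FOS (0.813), a subunit of AP-1, had 2.66 and 1.15, and IGFBP3 (0.816), a binding protein of insulin-like growth factors, had 2.25 and 1.04. All 5 were lower in Cl10 than in Cl1, by between -1.14 and -1.63 on the log2 scale, which their choice by likeness to S100A9 fixes. None lies among the S100 members.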

How the data were processed

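RNA of 6 A253 libraries was analysed, 2 each of the control, Cl1 and Cl10. Another 4 libraries of a SOX2 experiment were not analysed here. Per the study's methods, the libraries were poly(A)-selected and read from both ends, HISAT2 placed the reads on hg38, and the HTSeq protocol gave the deposited raw counts for 58735 genes, which the authors did not normalize. The labels name a stranded kit and the methods TruSeq, and the annotation and the strand setting of the counting are not given in the sources used here, so overlapping, antisense and near-identical genes are uncertain. Of the gene identifiers, 58207 (99.9% of counts) matched GENCODE v44, which gave positions and lengths. Promoter windows came from RefSeq (GRCh38.p14), and all 10 members matched. Where the table lists several starts, that of the GENCODE canonical transcript was used.

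The members and gene lists were chosen with earlier results of these data known. Tests used edgeR 4.0.16 in R 4.3.3 (filterByExpr, TMM, estimateDisp, glmQLFit, glmQLFTest). Standard errors were taken as the absolute log2 fold change over the root of F. Named genes are the members, DUSP1, up to 4 called genes of each list by largest change, and the 5 genes nearest to S100A9. Others are named where a count or a comparison turns on them, after their values were seen. On simulated counts with 200 genes changed 4-fold, 183 of 200 were called in the right direction among the 20153 genes of Cl1 against control, 183 among 19875 for Cl10 against control and 186 among 19818 for Cl10 against Cl1, with 4, 6 and 0 unchanged genes called. Alternatives in normalization, filter, tool (DESeq2 1.42.0), fold threshold, libraries fitted, replicate number, local position and length were run. The crossed replicate numbers and the length trend were added after seeing the data. Intervals and the floor of 3 counts cover the spread between libraries and counting error only.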

Additional observations from a re-analysis of the deposited data

Results flagged for a closer look

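The comparison of Cl10 with Cl1 tests whether the clones differed from each other, by the deletion or by any other property of the founding cells, and 10 S100 genes passed it, all lower in Cl10 than in Cl1. Among the members these were S100A9 (-1.62), S100A14 (-0.82), S100A10 (-0.56), S100A11 (-0.51), S100A6 (-0.48) and S100A16 (-0.24), as log2 fold changes of Cl10 against Cl1. Among the other S100 genes they were S100P (-3.42), S100A12 (-1.47), S100A3 (-1.20) and S100A13 (-0.42). S100P and S100A3 had moved in opposite directions from the control in the 2 clones, up in Cl1 and down in Cl10. The difference in S100A12 did not pass without Cl1 replicate 1 (-1.29) or Cl10 replicate 2 (-1.01) or with DESeq2 (-1.49). That in S100A16 did not pass in 5 of 14 alternatives, among them 1 fit over 6 libraries (adjusted p = 0.102, edgeR) and the leaving out of either Cl10 library. In this comparison 9 members and 7 other S100 genes were tested. Of all genes tested, 49% passed and 24.1% were lower in Cl10.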

How the results depend on the processing

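Of 404 repeats over the members, comparisons and alternatives, 359 kept direction and side of the adjusted p threshold. In 12 a member no longer passed, in 17 it newly passed, and 16 turned. A member that still passed but was no longer called counts among the 359. In Cl1 the 4 called members became 2 with library size only and 2 with the local median subtracted (S100A8 and S100A9), and 2 to 5 when single libraries were left out, 2 without control replicate 1. In Cl10 the 2 called members became 5 without a fold-change threshold, 0 with the local median subtracted, and 2 to 3 when single libraries were left out. Between the clones 1 became 6 without a fold-change threshold and was 1 without any single library. A lone library in such a fit is assumed to vary like the others. With the replicate block 4, 2 and 1 members were called, and S100A10 in Cl10 did not pass (0.35, adjusted p = 0.056, edgeR). No source says that the numbers pair libraries, and deviations of same-numbered libraries correlated at -0.162, -0.124 and 0.00462. The crossed pairing, added after seeing the data, gave 4, 2 and 1.

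The genes that turned had not passed the test in the main fit. Without control replicate 2, S100A2 and S100A16 in Cl10 turned and passed (0.21 and 0.12), beside a lone control library. With the local median subtracted S100A2, S100A6 and S100A16 in Cl1 were -0.15, -0.20 and -0.13, S100A7 in Cl10 was -0.17, and between the clones S100A2 and S100A4 were 0.016 and 0.048. With the length trend subtracted S100A2 and S100A16 in Cl10 were 0.12 and 0.082, and S100A4 between the clones 0.027. Without single libraries S100A2 ran from -0.073 to 0.36 in Cl1 and -0.22 to 0.21 in Cl10, S100A6 from -0.097 to 0.26 in Cl1, S100A7 from -0.37 to 0.40 and S100A16 from -0.16 to 0.12 in Cl10, SERPINB4 from -0.17 to 0.32, S100A13 from -0.26 to 0.037, AGER from -0.36 to 0.078 and ALCAM from -0.031 to 0.076 in Cl1, and ANXA2 from -0.039 to 0.18 in Cl1 and -0.16 to 0.055 in Cl10. AGER in Cl1 was 0.035 with the local median subtracted, ALCAM in Cl1 was -0.047 and ANXA2 in Cl1 -0.002 with library size only, and with the length trend subtracted ANXA2 in Cl10 was 0.056 and ALCAM in Cl1 -0.0 to rounding. The cause was not tested. With 2 libraries a group, S100A7 at 6 to 16 counts could show only large changes.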
